A study of Mus musculus with 8 samples.

Results

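The cardiac myosin chains and their binding partner were followed in hearts of mice overexpressing PKR2 and of WT mice. The set holds 8 genes, taken by name: the heavy chains Myh6 and Myh7, the light chains Myl1, Myl2, Myl3, Myl4 and Myl7, and Mybpc3, which encodes cardiac myosin-binding protein C. The array carried 13 probes for them among 41174 non-control probes, and the 8 genes stand among 14005 genes with a symbol and a tested probe. Both groups were male mice aged 12 weeks, with 4 hearts per group and 1 array per heart. One group is labelled as overexpressing PKR2, taken to mean prokineticin receptor 2, which signals through G proteins when prokineticin peptides bind it, and the other is labelled WT. The strain and the promoter that drives PKR2 are not given in the sources used here. No myosin gene is the target of the design, so every value below is a readout.

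Myosin is the motor of the thick filament. Each molecule pairs heavy chains, which bind actin and split ATP, with essential and regulatory light chains that brace the lever arm behind each head, and myosin-binding protein C sits along the filament and tunes how readily heads engage. Cardiac muscle uses separate genes by chamber and age: the adult mouse ventricle runs mainly on the fast alpha heavy chain (Myh6), the slower beta heavy chain (Myh7) prevails before birth and is known to return under pressure load or thyroid hormone deficiency, Myl2 and Myl3 serve the ventricle, and Myl7 and Myl4 serve the atria. The ratio of beta to alpha heavy chain is therefore a common readout of cardiac muscle state.

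A level below is the log2 of a probe's processed signal minus the log2 of that array's 75th percentile over all non-control probes, so 0 is that percentile and 1 unit is a doubling. Levels of different probes are not compared with each other, since each probe binds with its own strength. A difference is PKR2 minus WT, with n = 4 arrays per group throughout. Of the 6 slides, numbers 5 and 6 each carried 1 WT and 1 PKR2 array, which gives a pair of comparisons within a slide. Position 4 on the slide held WT 1 and every PKR2 array. WT 2, WT 4 and PKR2 4 were read at a single scanner range and the other 5 arrays over an extended range. The 75th percentile of signal ran from 38.1 to 736 and the share of spots well above background from 48.3% to 67.1%. The number of arrays limits the precision: over all 22717 tested probes the median half-width of the 95% interval of a difference was 0.48. With 1 array per heart, p-values measure the spread between hearts together with that of slide, array position and scan range. Nothing in the labels names litters or extraction days.

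All 13 myosin probes were well above background on all 8 arrays and all were tested. Both Myh7 probes were higher in PKR2 hearts, with no overlap between the groups, while the other 11 probes overlapped. In all, 10 probes were higher and 3 were lower in PKR2 hearts, a split that moved between 8 higher with 5 lower and 12 higher with 1 lower under other scalings. Their median difference was 0.080 against 0.0091 over all tested probes. It was 0.44 after normexp background correction, where the median over all tested probes was -0.098. That correction added an offset of 50 to every signal. On the single-range arrays the 75th percentile of processed signal was 38.1 (WT 2), 82.2 (PKR2 4) and 108 (WT 4). The part of the offset in the normexp values was not tested. No myosin probe passed limma's Benjamini-Hochberg threshold of 0.05 over all tested probes, and nor did any other probe (0%), the smallest adjusted p on the array being 0.0925. At an unadjusted limma p under 0.05 the count was 2 of 13 myosin probes, both of Myh7, against 575 of 22717 probes (2.53%), of which 292 were higher in PKR2 hearts (1.29%). Both counts depended on the fit. With slide as a fixed block it was 1 of 13, Myh7 probe 1 (limma unadjusted p = 0.0178, and 0.101 for probe 2), against 1713 of all probes (7.54%), and with array weights 3 of 13, with Myl7 at -0.38 (unadjusted p = 0.0396), against 2860 (12.6%). Groups without overlap and higher in PKR2 hearts were found for 2 of 13 myosin probes and for 234 of all tested probes (1.03%), and without overlap in either direction for 412 probes (1.81%). The 2 myosin probes in these counts read nearly the same bases of 1 gene, so they are 1 observation. In RNA of heart tissue, fewer cells of a type and less RNA per cell cannot be told apart.

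**Figure D1:**
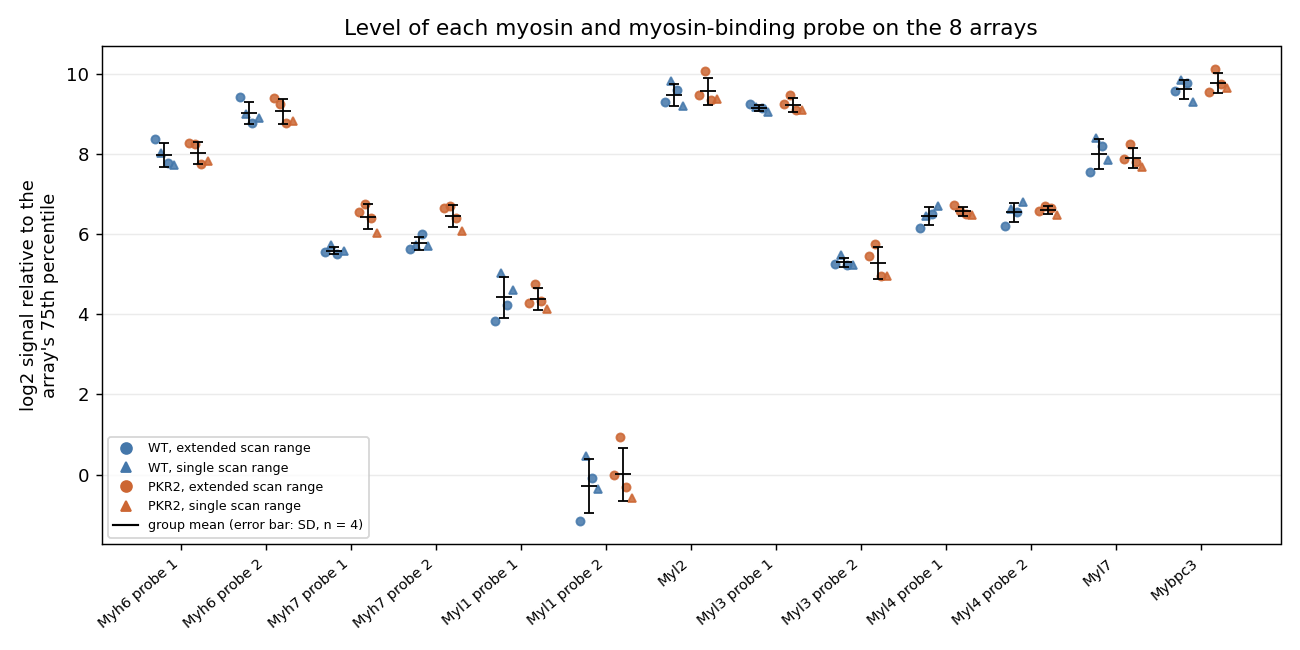
Level of each of the 13 probes on the 8 arrays (log2 signal relative to the array's 75th percentile), with the probes on the horizontal axis, WT in blue and PKR2 in orange, circles for the extended and triangles for the single scanner range, and bars for the mean and SD of 4 arrays. The WT and PKR2 points are apart at both Myh7 probes and overlap at the other 11.

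The beta heavy chain gene, Myh7, has a pair of probes at the same place on the minus strand of chromosome 14 in build mm8. Probe 1 lies at chr14:53924903-53924962 and probe 2 at chr14:53924898-53924957, so they share 55 bases. Exon and UTR annotation of that build was not used here. On probe 1 the WT hearts read 5.57, 5.72, 5.49 and 5.57 and the PKR2 hearts 6.55, 6.76, 6.41 and 6.03. The WT hearts lay close together, the PKR2 hearts were spread more widely, and the lowest of them, PKR2 4, stood above the highest WT heart. The mean was 5.59 ± 0.094 (SD, n = 4) in WT and 6.44 ± 0.31 in PKR2 hearts. The difference was 0.85 (SE 0.18, 95% interval 0.447 to 1.25), which is 1.80-fold, and it ranked 8 of 22717 by limma p (unadjusted p = 0.000887, adjusted p = 1). A two-sided exact permutation test over the 70 relabelings of 4 against 4 gave p = 0.0286, the smallest it can give.

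On probe 2 the WT hearts read 5.64, 5.73, 6.003 and 5.69 and the PKR2 hearts 6.65, 6.70, 6.39 and 6.09. The groups again did not overlap, but WT 3 and PKR2 4 came close to each other. The difference was 0.69 (SE 0.18), or 1.61-fold, at rank 36 by limma p (unadjusted p = 0.0036, adjusted p = 1). The probes parted mostly on WT 3, whose probe 2 level was 0.51 above its probe 1 level, while on the other 7 arrays that difference lay between -0.061 and 0.12. Without WT 3 the group difference was 0.82 on probe 1 and 0.77 on probe 2. Within slide 5 the difference was 0.92 on probe 1 and 0.39 on probe 2, and within slide 6 it was 0.46 and 0.39. Within the 5 extended-range arrays it was 1.04 on probe 1 and 0.76 on probe 2, and within the 3 single-range arrays, where PKR2 4 is the only PKR2 heart, it was 0.39 and 0.37. The sign held in every one of these subsets, and on both probes the size was smallest within the single range.

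Levels of fat cell transcripts were read beside Myh7, since their means also differed between the groups. Of 12 adipocyte marker genes 10 were tested, and all 10 were lower in PKR2 hearts. Their median difference was -1.96, with none passing the adjusted threshold, and the groups overlapped at every one of them. At an unadjusted limma p under 0.05 were 8 of them, against 371 of 15657 features with 1 probe per gene (2.37%). The mean centred level of the adipocyte genes was 1.22, 1.12, -0.11 and 1.08 in the WT hearts and -2.12, -1.87, 0.40 and 0.27 in the PKR2 hearts. Their summed level ran from 8.84 to 9.73 in WT and from 7.89 to 9.07 in PKR2 hearts. The brightest gene in that sum was Fabp4, at 8.51 ± 0.26 in WT and 7.99 ± 0.29 in PKR2 hearts. The brown fat genes Ucp1 (5.38 ± 0.89 in WT, 2.73 ± 2.18 in PKR2) and Cidea (6.90 ± 0.58 and 5.55 ± 0.53) were among the adipocyte genes. PKR2 3 and PKR2 4 had adipocyte levels above that of WT 3, and their Myh7 levels were above that of WT 3 on both probes. Among the PKR2 hearts, PKR2 1 and PKR2 2 had the lower adipocyte levels and the higher Myh7 levels on both probes. Among the WT hearts, WT 3 had the lowest adipocyte level, with the highest Myh7 level on probe 2 and the lowest on probe 1. The adipocyte level as a covariate was an alternative added after the data were seen. With it the Myh7 difference was 0.64 on probe 1 (SE 0.24, limma unadjusted p = 0.0252). On probe 2 it was 0.37 (SE 0.21, limma unadjusted p = 0.106). No probe of the array passed the adjusted threshold in that fit.

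The alpha heavy chain gene, Myh6, lies next to Myh7 on the same strand. Its probe 1 has coordinates that span 1586 bases, chr14:53898964-53900549, more than the 60 of an ungapped probe, and its probe 2 lies at chr14:53900628-53900687. On probe 2 the WT hearts read 9.41, 8.99, 8.78 and 8.89 and the PKR2 hearts 9.39, 9.25, 8.76 and 8.83. WT 1 and PKR2 1 were the highest of their groups and nearly equal, and the groups overlapped over almost their whole range. The difference was 0.041 (SE 0.21, 95% interval -0.424 to 0.505) on probe 2 and 0.046 (SE 0.21) on probe 1. These intervals leave room for changes of either sign. The 2 Myh6 probes do not share bases, and their levels followed each other across the arrays, with probe 2 above probe 1 by 0.96 to 1.18 on every array.

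Dividing the beta by the alpha chain signal within each array removes the array's scaling. The ratio was taken between the brighter tested probe of each gene, and only its difference between arrays carries meaning. The log2 ratio of Myh7 to Myh6 was -3.77, -3.26, -2.78 and -3.20 in the WT hearts and -2.75, -2.55, -2.37 and -2.74 in the PKR2 hearts. Every PKR2 heart stood above every WT heart, with WT 3 at -2.778 and PKR2 1 at -2.748 almost touching. The difference was 0.65, a 1.57-fold higher ratio, with an exact permutation p = 0.0286 (two-sided), which became 0.143 after Benjamini-Hochberg adjustment over the 5 ratios computed. Within slide 5 the difference was 0.41, within slide 6 it was 0.46, within the extended range 0.72 and within the single range 0.49. With each of the 4 combinations of a Myh7 and a Myh6 probe the groups did not overlap, and the difference ran from 0.64 to 0.81. The groups did overlap after quantile normalization (exact permutation p = 0.114), in the authors' deposited values (exact permutation p = 0.0857) and after normexp background correction (exact permutation p = 0.0571), with differences of 0.65, 0.77 and 0.70. The ratio rests on the same arrays as the Myh7 levels and is no second observation of them.

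**Figure D2:**
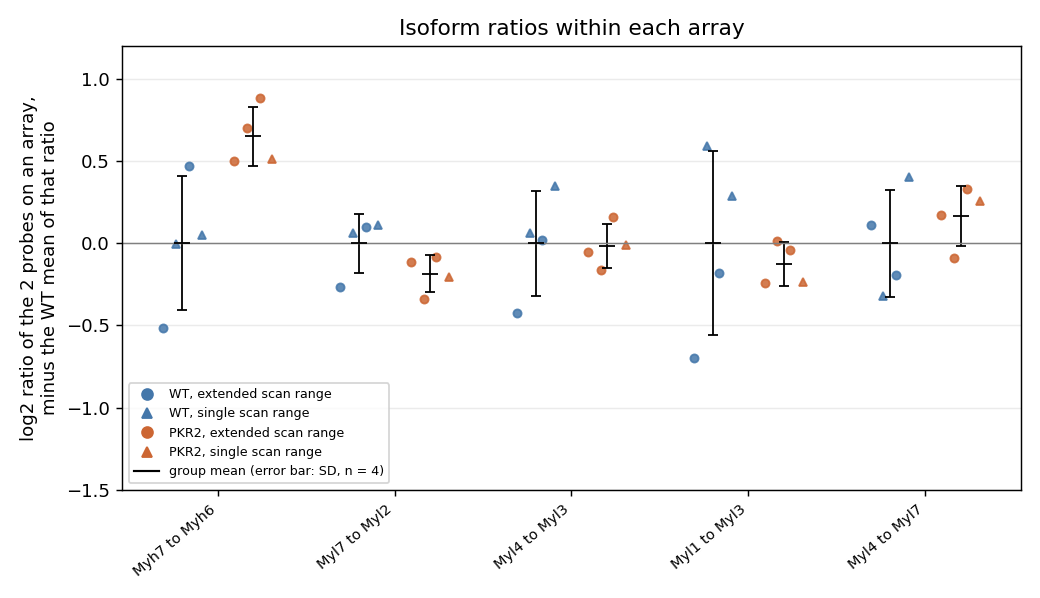
The 5 isoform ratios within each array, each as log2 ratio minus the WT mean of that ratio (vertical axis), for the gene pairs on the horizontal axis, with WT in blue, PKR2 in orange, circles and triangles for the extended and single scanner range, and bars for mean and SD of 4 arrays. The PKR2 points are all above the WT points for Myh7 to Myh6 alone, where the difference was 0.65.

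The stretches just before the start of Myh6 and Myh7 are shown because the groups came apart at Myh7 and at its ratio to Myh6. Both come from the RefSeq promoter table of build GRCm38.p6 and lie on the minus strand, Myh6 at chr14:54966608-54966857 and Myh7 at chr14:54994627-54994876, upstream of the outermost start in the table. Capitals mark an MCAT element, the letters CATTCC, which here reads as its reverse complement; MCAT elements are known to bind TEAD factors in muscle genes.
Myh6: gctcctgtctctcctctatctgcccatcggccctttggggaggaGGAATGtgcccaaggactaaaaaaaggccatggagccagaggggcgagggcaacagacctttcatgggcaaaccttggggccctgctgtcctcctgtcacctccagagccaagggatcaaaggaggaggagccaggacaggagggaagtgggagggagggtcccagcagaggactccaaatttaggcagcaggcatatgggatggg
Myh7: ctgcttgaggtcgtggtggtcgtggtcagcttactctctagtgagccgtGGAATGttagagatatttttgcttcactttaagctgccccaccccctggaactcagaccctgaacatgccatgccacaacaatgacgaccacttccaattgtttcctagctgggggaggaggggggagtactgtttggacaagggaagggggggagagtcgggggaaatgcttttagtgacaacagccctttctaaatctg
The MCAT letters begin 206 bases before the start in Myh6 and 201 bases before it in Myh7. On either strand CATTCC occurred in the 250 upstream bases of 5 of the 8 genes (Myh6, Myh7, Myl1, Myl3 and Myl7) and in 12.6% of 32851 promoters of the same length. The E box CANNTG, which is the same on both strands, occurred in 7 of the 8 genes, all but Myl4, and in 66.2% of promoters. The TATA box letters TATAAA were in Myl1 alone (12.4% of promoters), the GATA letters AGATAA in Myl2 alone (9.99%) and the MEF2 motif in Mybpc3 alone (2.92%). These are matches of letters in the window and were not tested against the differences.

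Each cardiac heavy chain gene also carries a microRNA within its span, known to be made with the host transcript and to act in the balance between the heavy chains. Their mature forms are shown, from the RefSeq table, because they tie the heavy chain genes together in sequence; the array did not measure mature miRNAs. Capitals mark the seed, bases 2 to 8.
mmu-miR-208a-3p: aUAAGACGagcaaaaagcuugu
mmu-miR-208b-3p: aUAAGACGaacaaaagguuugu
mmu-miR-499-5p: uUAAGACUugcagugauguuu
The forms from Myh6 (miR-208a) and Myh7 (miR-208b) share the seed UAAGACG. The form from Myh7b (miR-499), a further heavy chain gene, has the seed UAAGACU. No probe of Myh7b was tested.

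Probes around the heavy chain genes gave a view of the neighbourhood. Within 20000 bases of the Myh6 and Myh7 probes the array held 4 other probes, all on the opposite strand. An unnamed transcript (AK043575, chr14:53907978-53908037) between the heavy chain probes read 1.41 ± 0.73 in WT hearts and 1.74 ± 0.29 in PKR2 hearts and so differed by 0.33 (SE 0.33). The transcript ENSMUSG00000053118 at chr14:53928496-53928555, beyond the Myh7 probes, differed by -0.12 (SE 0.16). Neither neighbour reached an unadjusted limma p of 0.05, and their difference from Myh7 was not tested.

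**Figure D3:**
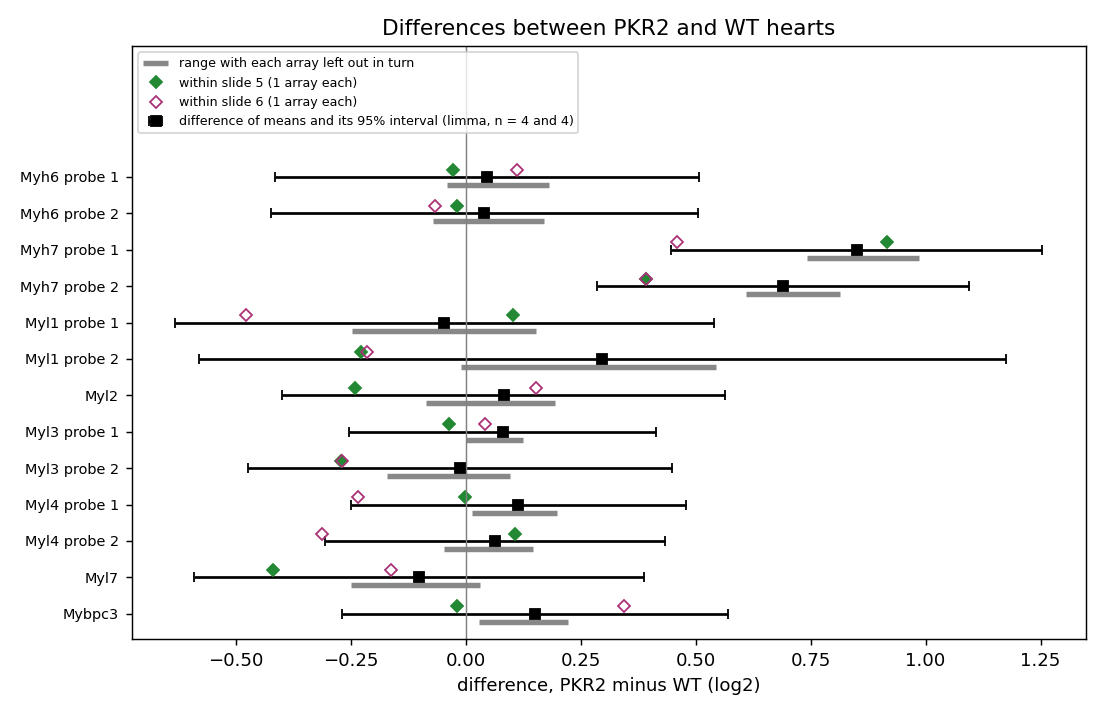
Difference between PKR2 and WT hearts for each of the 13 probes (horizontal axis, log2), with black squares and bars for the limma difference and its 95% interval (n = 4 and 4), grey bars for the range as each array is left out, and diamonds for the single pair of arrays within slide 5 and within slide 6. Both Myh7 intervals lie above 0, and the other 11 intervals include 0.

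The ventricular light chains overlapped between the groups. Myl2, the regulatory light chain of the ventricle (chr5:122364530-122365480, plus strand, coordinates spanning 951 bases), read 9.29, 9.81, 9.58 and 9.20 in WT and 9.46, 10.06, 9.34 and 9.36 in PKR2 hearts. WT 2 and PKR2 2 were the highest of their groups, PKR2 2 well above the other PKR2 hearts. The difference was 0.083 (SE 0.22), and without PKR2 2 it was -0.086. Both of these arrays also had the lowest 75th percentile of signal within their scanner range, 38.1 for WT 2 and 298 for PKR2 2, and that percentile is subtracted from the level. In the authors' deposited values, which carry another normalization, WT 2 was the lowest array for Myl2, at 354978, and PKR2 2 the highest, at 429743. The part of the scaling in the high Myl2 levels was not tested.

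Myl3, the essential light chain of the ventricle, has probe 1 at chr9:110613944-110614238 (spanning 295 bases) and probe 2 at chr9:110608637-110608696. On probe 1 the WT hearts lay between 9.05 and 9.24 and the PKR2 hearts between 9.09 and 9.47. The WT hearts thus held within an SD of 0.078, and 3 of the 4 PKR2 hearts fell near them. The difference was 0.080 (SE 0.15) on probe 1 and -0.012 (SE 0.21) on probe 2. On probe 2 the PKR2 hearts were split, with 5.45 and 5.75 in PKR2 1 and PKR2 2 against 4.95 and 4.96 in PKR2 3 and PKR2 4, so that the WT hearts (5.22 to 5.47) lay between them.

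The atrial light chains did not separate the groups either. Myl7, the regulatory light chain of the atria (chr11:5796640-5796699, minus strand), read 7.56, 8.40, 8.21 and 7.85 in WT and 7.88, 8.25, 7.79 and 7.68 in PKR2 hearts. WT 2 was the highest and WT 1 the lowest of all 8, so the WT range enclosed the PKR2 range. The difference was -0.10 (SE 0.22), at -0.42 within slide 5 and -0.16 within slide 6. Myl4, the essential light chain of the atria and of the embryonic heart, has probes at chr11:104400211-104400581 and chr11:104400198-104400568, which share 358 bases of coordinates. Probe 1 ranged from 6.15 to 6.71 in WT and from 6.47 to 6.71 in PKR2 hearts, and the differences were 0.11 (SE 0.16) and 0.064 (SE 0.17).

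The atrial marker list was read beside these genes, since the labels do not say which chambers entered the RNA. Of its 12 genes 11 were tested, 6 higher and 5 lower in PKR2 hearts, none at an unadjusted limma p under 0.05, with a median difference of 0.044. Its summed level ran from 9.25 to 9.70 in WT and from 9.14 to 9.81 in PKR2 hearts. Atrial Nppa, the gene of atrial natriuretic peptide, differed by 0.059 (SE 0.18), and Sln, the gene of sarcolipin, by -0.085 (SE 0.25). Within each array the log2 ratio of Myl7 to Myl2 was -1.74, -1.41, -1.37 and -1.36 in WT and -1.58, -1.81, -1.55 and -1.67 in PKR2 hearts. WT 1 stood with the PKR2 hearts, and the other 3 WT hearts were above all PKR2 hearts. The difference was -0.18 (exact permutation p = 0.143, two-sided, adjusted 0.358 over 5 ratios), and the ratio lay below WT within both slides, at -0.18 and -0.31. The ratio of Myl4 to Myl3 differed by -0.016 (exact permutation p = 0.971) and that of Myl4 to Myl7 by 0.17 (exact permutation p = 0.4).

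Myl1, the essential light chain of fast skeletal muscle, had the widest spread of the set among WT hearts. Its probe 1 (chr1:66857582-66857641, minus strand) read 3.82, 5.03, 4.24 and 4.61 in WT and 4.28, 4.76, 4.34 and 4.14 in PKR2 hearts. The difference was -0.046 (SE 0.26), and the 2 scanner ranges disagreed on its sign, with 0.43 within the extended and -0.68 within the single range. Probe 2, matched to another transcript record (coordinates chr1:66863487-66867734, spanning 4248 bases), read -0.28 ± 0.68 in WT and 0.013 ± 0.66 in PKR2 hearts. The difference of 0.30 (SE 0.39) fell to -0.010 without PKR2 2. The log2 ratio of Myl1 to Myl3 differed by -0.13 (exact permutation p = 0.714), with a WT range of -5.42 to -4.13 that enclosed all PKR2 hearts.

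Mybpc3 (chr2:90937259-90937318, plus strand) read 9.56, 9.83, 9.76 and 9.30 in WT and 9.55, 10.13, 9.74 and 9.64 in PKR2 hearts. The difference was 0.15 (SE 0.19), within the spread between hearts, and 0.030 without PKR2 2. Its spots were flagged as saturated on WT 4, PKR2 1 and PKR2 3, so a higher level on those arrays could have been cut short. Its signal lay between 53.2% and 104% of the array's saturation value. It was also above that value on WT 3 (100.2%) and PKR2 4 (100.7%), which carried no flag, so the same limit can hold there. Myl2 was not flagged but reached 52.3% to 97.2%. Myh6 probe 2, the probe used in the ratio of Myh7 to Myh6, reached 29.6% to 88.5%, and Myl3 probe 1 reached 33.3% to 87.2%. Neither was flagged. Myh7 used between 3.07% and 13.2% of the range on either probe, far from saturation.

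**Figure D4:**
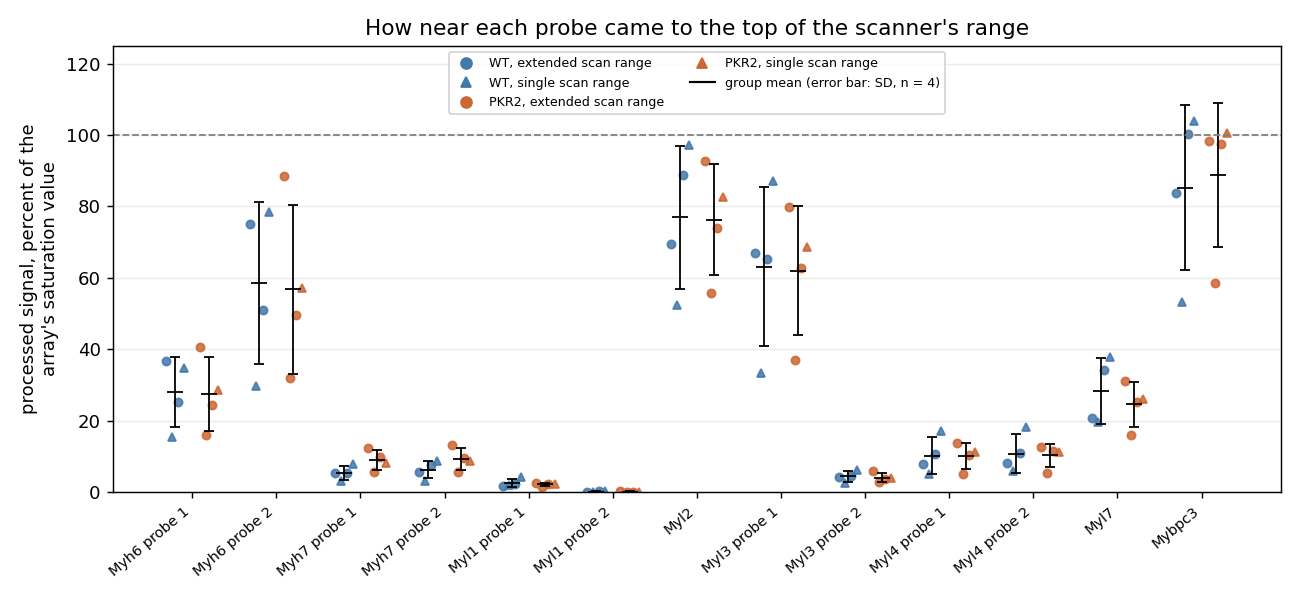
Processed signal of each of the 13 probes as a percentage of the array's saturation value (vertical axis), with WT in blue, PKR2 in orange, circles and triangles for the extended and single scanner range, bars for mean and SD of 4 arrays, and a dashed line at the saturation value. Mybpc3 reached the line on several arrays, and both Myh7 probes stayed between 3.07% and 13.2%.

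The members varied together in some pairs and not in others. The correlation given here is Pearson's r of levels centred on each group's mean over the 8 arrays, with 1 probe per gene, as a description. All levels of an array share its scaling, and the part of that scaling in these correlations was not tested. Myl2 and Mybpc3 had r of 0.91, Myl2 and Myl7 0.88, Myl1 and Myl7 0.81, and Myl1 and Myl4 0.78. Myh6 and Myl3 had 0.72. The heavy chains Myh6 and Myh7 had 0.29, so an array high in one was only weakly high in the other.

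Beyond the set, the genes whose centred levels were most like those of Myh7 (probe 2) over the 8 arrays were Neurl2 (r of 0.98), Ccdc181 (0.98), Vwc2 (0.95), Cyhr1 (0.95) and Vwa8 (0.95). Centring removes the difference between groups, so the likeness can only concern hearts inside each group. The genes' own differences between groups were 0.0018, -0.092, 0.45, 0.027 and 0.00061. For Myl2 they were Acadvl (0.99), an enzyme of mitochondrial fatty acid oxidation, Atp5o (0.99), a subunit of ATP synthase, Acsl6 (0.99), Ndufa13 (0.99), a subunit of respiratory complex I, and Grin3b (0.99). All 5 were highest in WT 2 and PKR2 2, as Myl2 was. For Myl7 they were Mpv17l (0.99), Fbxo31 (0.99), Rab3b (0.98), Map7d2 (0.98) and Gpr155 (0.97). Correlations of the best of 15657 features are high by selection, and nothing is read from them about function.

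The genes around the myosin chains were read from lists, with 1 probe per gene. The median difference over all 15657 features was -0.0079, and 371 of them had an unadjusted limma p under 0.05, none adjusted. The other myosin chains gave 13 of 19 genes tested, 7 higher and 6 lower, with a median of 0.027 and none at an unadjusted p under 0.05. The nearest to that mark was Myh9, a non-muscle heavy chain, which read 5.11 ± 0.13 in WT hearts and 5.40 ± 0.17 in PKR2 hearts and differed by 0.30 (SE 0.15). The smooth muscle and non-muscle light chains Myl9 and Myl6 differed by -0.18 (SE 0.24) and -0.11 (SE 0.16).

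Of the thick filament and M-band genes 12 of 13 were tested, 6 higher and 6 lower, with a median of -0.0088. Titin (Ttn), the spring that spans the half-sarcomere, differed by 0.22 (SE 0.16) and Mybph by -0.40 (SE 0.25). Of the genes for myosin folding and light chain phosphorylation 12 of 13 were tested, 8 higher and 4 lower, with a median of 0.043; the methyltransferase Smyd1 differed by -0.31 (SE 0.21), the myosin chaperone Unc45a by -0.20 (SE 0.20) and Hsp90ab1 by 0.13 (SE 0.14). Of the regulators of myosin genes 18 of 20 were tested, 10 higher and 8 lower, with a median of 0.032. Hand2 differed by 0.31 (SE 0.17), Irx4, a ventricular transcription factor, by 0.25 (SE 0.15), and Tead1, a TEAD factor, by 0.17 (SE 0.16). No gene of these lists reached an unadjusted limma p of 0.05.

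Markers of other cells that a heart sample holds were read in the same way. Of 15 cardiomyocyte markers all 15 were tested, 10 higher and 5 lower, with a median of 0.038 and summed levels of 11.6 to 12.1 in WT and 11.7 to 12.3 in PKR2 hearts. Casq2, the calcium store protein calsequestrin, differed by 0.25 (SE 0.16), cardiac actin (Actc1) by 0.25 (SE 0.17) and Ldb3 by 0.20 (SE 0.18), none at an unadjusted limma p under 0.05. The ventricular list had 8 of 9 genes tested and a median of 0.069. Its Irx3 differed by -0.64 (SE 0.33) and Kcnip2 by 0.27 (SE 0.20). The smooth muscle list had a median of -0.063 over 9 genes. Acta2, smooth muscle actin, was the 1 gene of that list whose groups did not overlap, against 1.81% of all tested probes. It read 5.04 ± 0.053 in WT hearts and 5.39 ± 0.063 in PKR2 hearts (0.36 apart, SE 0.13, limma unadjusted p = 0.0209, adjusted p = 1). Myocd differed by 0.43 (SE 0.28) and Cnn1 by -0.60 (SE 0.42). The atrial genes Tbx5, Bmp10 and Mybphl differed by -0.23 (SE 0.24), 0.28 (SE 0.31) and 0.15 (SE 0.22).

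Skeletal muscle markers were read because Myl1 is a skeletal gene. Of 14 genes 9 were tested, 6 higher and 3 lower, with a median of 0.067 and none at an unadjusted limma p under 0.05. Their summed level ran from 7.81 to 8.79 in WT and from 8.09 to 8.76 in PKR2 hearts. Most of that sum came from a single probe of Myh4, which alone read 7.58 to 8.66 in WT and 7.84 to 8.62 in PKR2 hearts. The other probe of Myh4 was dim, as given below, so the sum is not read as a level of skeletal muscle. Atp2a1 differed by 0.30 (SE 0.24), Myoz1 by 0.17 (SE 0.17) and Tnnt1 by -0.16 (SE 0.23). The skeletal regulatory light chain Mylpf read -2.92 ± 0.38 in WT and -2.85 ± 0.38 in PKR2 hearts.

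The probes of the skeletal, embryonic and perinatal heavy chains did not agree among themselves. All 3 probes of Myh1, all 3 of Myh2 and the 1 of Myh13 were left untested as too dim. Of the 2 probes of Myh4, the fastest skeletal heavy chain, 1 was not well above background on any array and the other, at chr11:67075497-67075556, read 8.01 ± 0.47 in WT and 8.08 ± 0.37 in PKR2 hearts. Of the 4 probes of Myh8, the perinatal heavy chain, 3 were not well above background on any array and the probe at chr11:67124618-67124677 read 8.92 ± 0.66 in WT and 8.81 ± 0.57 in PKR2 hearts. The bright probes differed between the groups by 0.071 (SE 0.27) and -0.11 (SE 0.37). The embryonic Myh3 was dim on both probes. Heavy chain genes are close in sequence, and whether the bright probes bind another heavy chain's transcript was not tested, since the probe sequences were not used here. The groups of Myh4 and Myh8 are given by these single probes only.

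**Figure D5:**
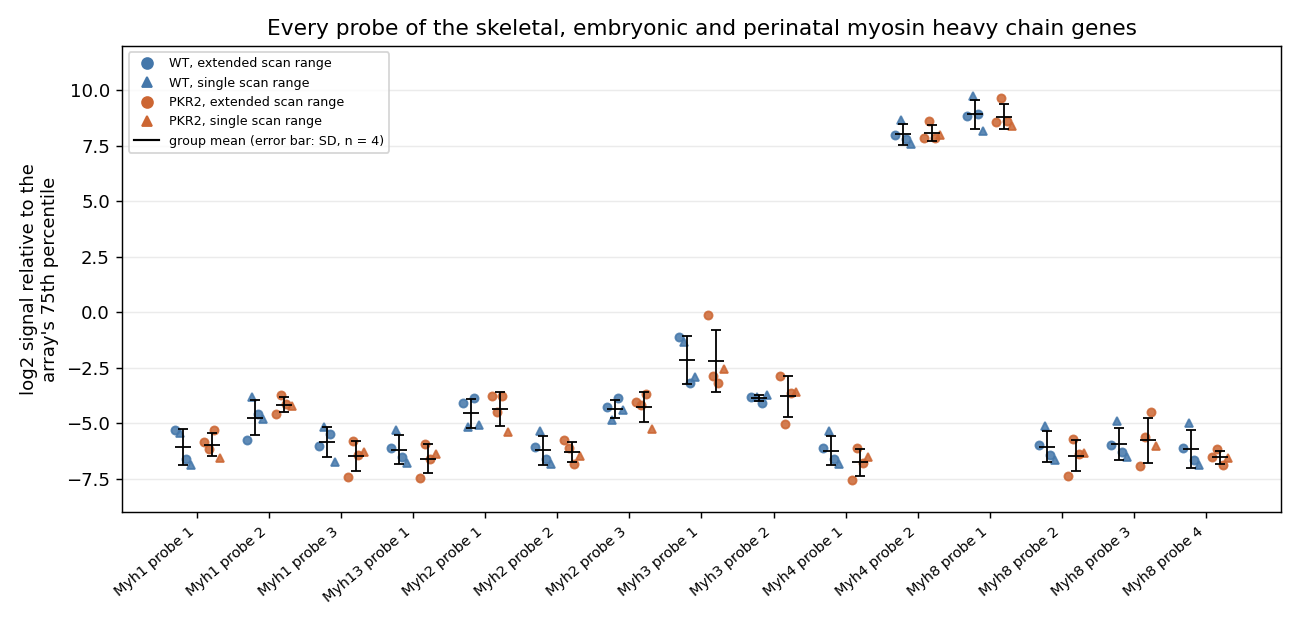
Level of every probe of Myh1, Myh13, Myh2, Myh3, Myh4 and Myh8 on the 8 arrays (vertical axis, log2 signal relative to the array's 75th percentile), with WT in blue, PKR2 in orange, circles and triangles for the extended and single scanner range, and bars for mean and SD of 4 arrays. A single probe of Myh4 and a single probe of Myh8 are bright in both groups, while the other probes of the same genes are at the dim end.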

How the data were processed

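Each of the 8 heart RNAs was read on its own 1-colour array. Per the labels' protocols, total RNA came from a Tri-Reagent extraction and was labelled with Cy3. The images, per the file headers, went through Agilent Feature Extraction 9.5.1.1, and probe positions are those of mm8. The deposited scanner values are spot intensity on a linear scale, with background subtracted and no normalization across arrays. The authors' deposited values (column medians 139 to 144, normalization not given in the sources used here) were an alternative. Processed signal was taken to log2 and each array's 75th percentile subtracted, with outlier spots left out and saturated spots kept. Testing needed a signal well above background on 3 of the 4 arrays of either group, and 97 detected probes without an unflagged spot on some array were left out. The fit was limma's (version 3.58.1, R 4.3.3, data.table version 1.17.8) with no covariate and Benjamini-Hochberg adjustment over 22717 probes, tested on simulated data; ratios were compared by exact permutation. Lists used the brightest tested probe per gene. A list's mean centred level averages its genes after subtracting each gene's mean of all arrays, and its summed level is the log2 of its genes' added signal.

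The members and the 10 gene lists were chosen with earlier results of these data known. Named are all members, the 3 genes of smallest p per list that are no members, and the 5 genes most like each of Myh7, Myl2 and Myl7. A gene that this rule names is not reported here. Ucp1 is among those named. Fabp4, Nppa, Sln, Mylpf and the probes near the heavy chains were chosen after their values were seen. Member names come from the files, and other names from RefSeq (GRCm38.p6) through accession (24375 probes) or symbol (8727 probes). Alternatives covered background correction, normalization, filters, slide, array position, scan range, saturation, variance model, array weights and leaving out each array.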

Additional observations from a re-analysis of the deposited data

Results flagged for a closer look

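Of 56 sets of 4 arrays examined, 4 held an array far from the other 3 by Dixon's criterion, and chance alone marks about 1 set in 20. Myl2 in PKR2 2 read 10.06, against 9.34 to 9.46 in the other PKR2 hearts. Myl3 probe 2 in WT 2 read 5.47, against 5.22 to 5.24 in the other WT hearts. The log2 ratio of Myl7 to Myl2 in WT 1 was -1.74, against -1.41 to -1.36 in the other WT hearts. The adipocyte score of WT 3 was -0.11, against 1.08 to 1.22 in the other WT hearts.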

How the results depend on the processing

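The sign of the difference held under all 26 alternatives for Myh7 probe 1 (0.39 to 1.19) and all 27 for probe 2 (0.37 to 1.13), with a smallest limma adjusted p of 0.37, under all 27 for Mybpc3, and under all 24 for the ratio of Myh7 to Myh6 (0.44 to 1.17). Some of these alternatives could not move the value. Probe filters, the variance model and leaving out saturated arrays left the Myh7 difference as it was, and array scaling cancels in the ratio. The Myh7 differences of 1.19 and 1.13 came after normexp background correction, with its offset of 50. The ratio's 1.17 came with array position as a covariate. As each array was left out, the Myh7 difference ran from 0.74 to 0.99 on probe 1, from 0.61 to 0.81 on probe 2 and from 0.48 to 0.81 for the ratio. As a fixed block, slide leaves only the arrays of slides 5 and 6 to compare, and the difference was 0.69 on probe 1 (limma unadjusted p = 0.0178) and 0.39 on probe 2 (0.101), and with array weights 0.69 and 0.46. The number of probes called over the whole table was 0, and it was 1 (Anks1) with probes well above background on all 8 arrays, with slide as a random block, with a trended robust variance and without PKR2 3, between 0 and 1 as each array was left out, and 5 with array position as a covariate (Fzd2, Olfr1309, Dock6, Rcan3 and Cox18). On the 3 single-range arrays only, with 1 PKR2 array, it was 6 (Ifit3, Fam20a, Sult1c1, Tspan17, Msl1 and Lurap1). The genes named for these alternatives were chosen after their values were seen, and none is a myosin gene. With array position as a covariate, each difference sets the PKR2 hearts against WT 1 alone, the only WT array at position 4. The number at an unadjusted limma p under 0.05, 575, was 1713 with slide as a fixed block, 1407 as a random block, 2860 with array weights, 371 with 1 probe per gene, 381 with scan range and 340 with adipocyte level as a covariate, 240 on extended-range arrays, 349 on single-range arrays (no myosin probe among them), 338 without slide 6, 1245 without WT 1, 330 without PKR2 1 and 882 without PKR2 2. Differences of the other probes, none past the threshold, changed sign under some alternatives; the cause was not tested. After normexp background correction, the difference was 0.39 for Myl1 probe 1, -0.0043 for Myl1 probe 2, 0.31 for Myl3 probe 2 and 0.35 for Myl7. After quantile normalization, the difference was 0.011 for Myl1 probe 1 and 0.037 for Myl3 probe 2. After median scaling, the difference was -0.0071 for Myh6 probe 1 and -0.013 for Myh6 probe 2. With the percentile taken over probes well above background on all arrays, the difference was 0.023 for Myl3 probe 2. In the authors' deposited values, the difference was -0.092 for Myh6 probe 1, -0.032 for Myh6 probe 2, 0.0042 for Myl1 probe 1 and -0.0073 for Myl3 probe 1. With slide as a fixed block, the difference was -0.043 for Myh6 probe 2, -0.22 for Myl1 probe 2, -0.044 for Myl2, -0.12 for Myl4 probe 1 and -0.10 for Myl4 probe 2. With array position as a covariate, the difference was -0.36 for Myh6 probe 1, -0.35 for Myh6 probe 2, 0.56 for Myl1 probe 1, -0.014 for Myl3 probe 1, 0.035 for Myl3 probe 2 and 0.34 for Myl7. With scan range as a covariate, the difference was -0.0099 for Myh6 probe 1, -0.014 for Myh6 probe 2 and 0.032 for Myl1 probe 1. On extended-range arrays only, the difference was 0.43 for Myl1 probe 1, 0.15 for Myl3 probe 2 and 0.092 for Myl7. On single-range arrays only, the difference was -0.047 for Myh6 probe 1, -0.11 for Myh6 probe 2, -0.62 for Myl1 probe 2, -0.15 for Myl2, -0.012 for Myl3 probe 1, -0.11 for Myl4 probe 1 and -0.23 for Myl4 probe 2. Without slide 6, the difference was 0.097 for Myl1 probe 1 and 0.073 for Myl3 probe 2. With array weights, the difference was -0.066 for Myh6 probe 1, -0.067 for Myh6 probe 2, -0.29 for Myl1 probe 2, -0.18 for Myl2 and -0.014 for Myl3 probe 1. With adipocyte level as a covariate, the difference was -0.15 for Myh6 probe 1, -0.19 for Myh6 probe 2, -0.28 for Myl1 probe 2, -0.17 for Myl2, -0.058 for Myl3 probe 1 and -0.0085 for Myl4 probe 1. The ratio of Myl4 to Myl3 differed by 0.14 after normexp background correction, 0.033 after quantile normalization, 0.17 in the authors' deposited values, 0.41 with array position as a covariate, 0.044 with scan range as a covariate, 0.19 on extended-range arrays only, 0.097 without slide 6 and 0.070 with adipocyte level as a covariate. The ratio of Myl1 to Myl3 differed by 0.011 in the authors' deposited values, 0.57 with array position as a covariate, 0.35 on extended-range arrays only and 0.0045 without slide 6. The ratio of Myl7 to Myl2 differed by 0.085 with array position as a covariate. With other probe pairs it was 0.034 for Myl4 probe 1 to Myl3 probe 1, 0.13 for Myl4 probe 1 to Myl3 probe 2, 0.077 for Myl4 probe 2 to Myl3 probe 2, 0.22 for Myl1 probe 2 to Myl3 probe 1 and 0.31 for Myl1 probe 2 to Myl3 probe 2. As each array was left out, the difference ran from -0.046 to 0.15 for Myl4 probe 2, -0.25 to 0.15 for Myl1 probe 1, -0.17 to 0.096 for Myl3 probe 2, -0.25 to 0.031 for Myl7, -0.040 to 0.18 for Myh6 probe 1, -0.072 to 0.17 for Myh6 probe 2, -0.086 to 0.20 for Myl2, -0.010 to 0.54 for Myl1 probe 2, -0.00012 to 0.13 for Myl3 probe 1, -0.16 to 0.099 for Myl4 to Myl3 and -0.36 to 0.070 for Myl1 to Myl3. After normexp the median over all tested probes was -0.098, and list medians were 0.31 (thick filament and M-band), 0.30 (myosin folding and light chain kinases), 0.22 (myosin gene regulators), 0.24 (atrial myocytes), 0.30 (ventricular myocytes), 0.40 (smooth muscle) and 0.52 (cardiomyocytes).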
